A study of Homo sapiens with 72 samples.

Results

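Omaveloxolone at 0.0005, 0.002 and 0.005 µM, the 3 lowest doses of its series, was compared with the solvent dimethyl sulfoxide (DMSO) in human skin fibroblasts to find which genes move first and whether they step up with dose. The 12 treated wells, of 72 wells in all, were chosen by plate position: rows K and L held 0.0005 µM in columns 12 and 22, 0.002 µM in columns 11 and 21, and 0.005 µM in columns 10 and 20. Each dose thus had 4 wells, with replicates 1 and 3 in columns 10 to 12 and replicates 2 and 4 in columns 20 to 22. The controls were 32 DMSO wells, 16 in column 2 and 16 in column 23, over rows A to P. Cells of all groups were normal human dermal fibroblasts, wildtype and bought as primary cells, seeded at 1250 cells per well and lysed after 24 hours. The labels number the wells as biological replicates but name no separate cultures or donors, so p-values here reflect only well-to-well spread, which may be technical. The protocol gives 16 DMSO wells for a plate while 32 wells carry the label, and all 32 were used.

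Omaveloxolone is a semi-synthetic triterpenoid that reacts with cysteines of KEAP1, the adaptor that presents the transcription factor NRF2 (gene NFE2L2) to a ubiquitin ligase. When KEAP1 is blocked, newly made NRF2 escapes degradation, pairs with small MAF proteins and binds antioxidant response elements beside its target genes. In fibroblasts, as in most cells, those targets make quinone reductases, glutathione and thioredoxin enzymes, NADPH-producing enzymes and proteins that store iron.

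Transcripts were read by DRUG-seq, a barcoded method that sequences the 3′ ends of polyadenylated RNA from lysed wells. The 12 wells held 4173793 to 7146555 counts and the DMSO wells 4910790 to 8685413. The ratio of the mean totals was 0.926 (two-sided permutation test, p = 0.122, adjusted p = 0.462 over 12 tests of depth and RNA makeup, none lower). Transcripts of the mitochondrial genome took 0.712 to 1.14% of counts in the 12 wells and 0.6002 to 1.25% in DMSO. All 12 fibroblast markers were measured, and their summed level was 69440 to 80680 CPM in the 12 wells against 69070 to 82890 CPM in DMSO. For summed markers CPM is relative to the well's raw total, and for single genes it is relative to the well's TMM-scaled library size. Summed markers of other skin cells overlapped likewise: keratinocyte markers spanned 416.2 to 540.3 CPM against 357.0 to 551.9 CPM with PKP1 at 0 in all 44 wells, and melanocyte markers 19.75 to 55.23 CPM against 12.2 to 62.77 CPM with TYRP1 at 0. The DMSO columns differed from each other: 687 of 11258 genes (6.1%) differed between column 23 and column 2. In lysates of whole wells, fewer cells of a type and less RNA per cell cannot be told apart.

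Pooled over the 3 doses, 24 genes rose and 88 fell. A gene is called where its p-value, adjusted over all 13668 genes tested by edgeR's quasi-likelihood test, was under 0.05, and the 112 calls were 0.819% of those genes (0.176% higher, 0.644% lower). Of the 24 rises, 10 belong to a list of 47 measured NRF2 targets: NQO1, TKT, TXNRD1, FTL, FTH1, PIR, AKR1C1, AKR1C3, TXN and PGD. None of the 47 fell. The median log2 change of the 47 was 0.22 with 39 above 0, against -0.04 over all genes. At an unadjusted p under 0.05, 24 of the 47 were higher and 2 lower, beside 508 higher and 1121 lower of all 13668 genes (11.9% in either direction). The number of pooled calls moved with single wells, from 74 without replicate 3 of 0.0005 µM to 169 without replicate 4 of 0.002 µM, and with the fit: DESeq2's Wald test called 223, a fit of all 72 wells 28, and the controls of rows K and L alone 2. All 10 NRF2 targets stayed called whichever of the 12 wells was left out, while 1 of the other 14 rises and 51 of the 88 falls did.

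NQO1, the quinone reductase that is the classic readout of NRF2, moved most clearly (ENSG00000181019, GRCh38 chr16:69706996-69726951, minus strand). Its level in DMSO had a lowest, median and highest value of 315.1, 413.6 and 520.0 CPM. The wells of replicates 1 to 4 held 476.9, 439.4, 452.9 and 460.2 CPM at 0.0005 µM, 754.6, 737.5, 660.9 and 596.3 CPM at 0.002 µM, and 982.2, 1029, 930.2 and 818.7 CPM at 0.005 µM. The 0.0005 µM wells lay inside the DMSO range, while every well at the next doses lay above it, and no well of one dose overlapped the next. The log2 change against DMSO at 0.0005 µM was 0.17 (adjusted p = 0.690), followed by 0.76 (SE 0.08, adjusted p = 4.15e-09) at 0.002 µM and 1.21 (SE 0.07, adjusted p = 1.12e-17) at 0.005 µM, the last a 2.31-fold rise. Pooled over the doses, NQO1 rose 1.64-fold (log2 0.71, SE 0.05, adjusted p = 7.35e-15). The slope over the 3 dose means, with the spread taken from all 44 wells, was 1.03 log2 units per 10-fold dose (SE 0.11, adjusted p = 2.75e-08), and it passed with the 12 treated wells alone in the fit (adjusted p = 9.33e-05). The step from 0.0005 to 0.002 µM passed the test (log2 0.59, adjusted p = 0.0373), and NQO1 was the only gene of 13668 called there (0.00732%). The step from 0.002 to 0.005 µM was of like size (log2 0.45) but did not pass (adjusted p = 0.753); 0 genes did, with 775 (5.67%) at an unadjusted p under 0.05.

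TKT, which encodes transketolase of the non-oxidative pentose phosphate pathway, was the other gene called in the dose slope (chr3:53224707-53256052, minus strand). Those 2 calls were 0.0146% of the genes tested, both higher, with 770 genes (5.63%) at an unadjusted p under 0.05. Its DMSO wells ran from 364.1 through a median of 447.2 to 509.1 CPM. At 0.0005 µM the wells held 490.5, 457.9, 474.5 and 451.4 CPM, at 0.002 µM 573.7, 572.9, 534.3 and 497.5 CPM, and at 0.005 µM 709.6, 669.4, 634.7 and 703.5 CPM. The 3 doses did not overlap, and all 0.005 µM wells exceeded every DMSO well. TKT rose 1.27-fold over the pooled doses (log2 0.34, SE 0.05, adjusted p = 2.26e-06) and 1.54-fold at 0.005 µM (adjusted p = 1.21e-08). Its slope was 0.52 log2 units per 10-fold dose (SE 0.10, adjusted p = 0.0105). That slope lost its call without replicate 2 (adjusted p = 0.104) or 4 (0.0731) of 0.0005 µM, or replicate 4 of 0.005 µM (0.0551), with the 12 treated wells alone (0.148) and in either column group alone (1.0 in each). With all 72 wells in the fit neither slope passed (NQO1 adjusted p = 0.0622). NQO1, TKT and PLEKHM1 were the 3 genes (0.0219%) whose doses were ordered upward without overlap, and PLEKHM1, seen only after its values were ranked, was not called (slope adjusted p = 0.793). No gene was ordered downward in that way.

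**Figure D1:**
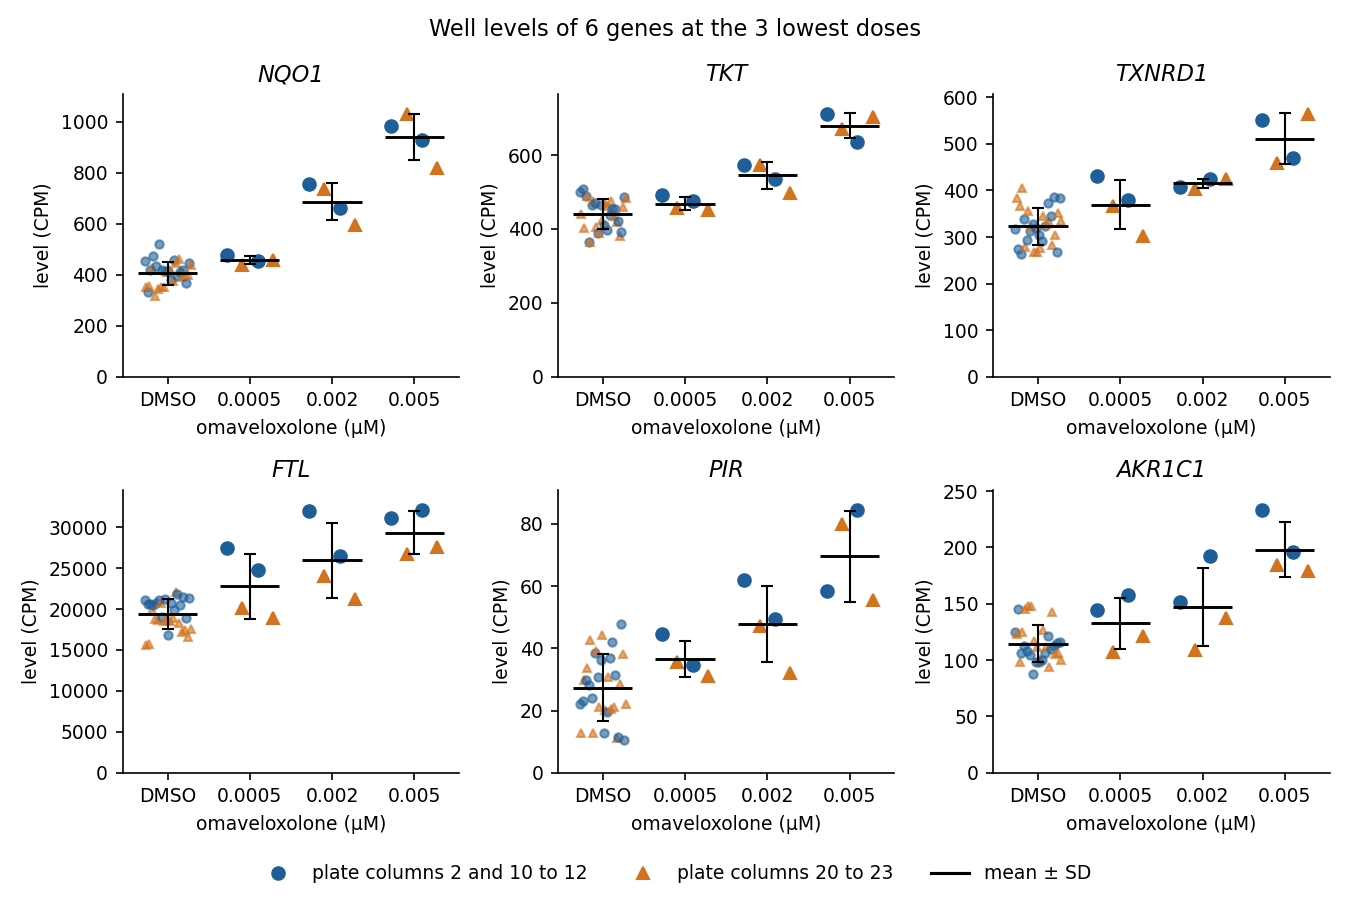
Level of NQO1, TKT, TXNRD1, FTL, PIR and AKR1C1 in each well (CPM, y axis) by dose (x axis); circles are wells of columns 2 and 10 to 12, triangles wells of columns 20 to 23, and bars the mean ± SD of 32 DMSO wells or 4 wells of a dose. NQO1 climbs from between 439.4 and 476.9 CPM at the lowest dose to between 818.7 and 1029 CPM at the highest without overlap, and the other 5 genes also have their highest means at 0.005 µM.

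The thioredoxin system, which reduces oxidised protein thiols with electrons from NADPH, gave 2 rises. TXNRD1, thioredoxin reductase (chr12:104215779-104350305, plus strand), held 264.7, 323.0 and 405.3 CPM as lowest, median and highest of DMSO. Its wells held 430.0, 367.3, 378.9 and 301.7 CPM at 0.0005 µM, 407.8, 404.2, 423.8 and 424.4 CPM at 0.002 µM, and 552.3, 458.1, 468.7 and 563.1 CPM at 0.005 µM. All 0.005 µM wells lay above every DMSO well, while 1 well at 0.0005 µM lay below the DMSO median. The pooled log2 change was 0.41 (SE 0.06, adjusted p = 1.15e-05), made of 0.19, 0.36 and 0.66 at the 3 doses. TXN, its substrate thioredoxin (chr9:110243811-110256640, minus strand), spanned 1624 to 1838 CPM in wells at 0.0005 µM, 1684 to 1977 CPM in those at 0.002 µM, and in those at 0.005 µM 2053 to 2103 CPM, against 1178 to 1927 CPM in DMSO. The 4 wells of 0.005 µM were above all DMSO wells, and TXN was called at that dose (log2 0.39, adjusted p = 0.00335).

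Short stretches of the promoters are shown to place the antioxidant response element beside genes that rose. The letters searched were TGACNNNGC on either strand (GCNNNGTCA when read from the other strand), within 250 bases before to 50 after each start in RefSeq's GRCh38.p14 table. Each stretch below runs 5′ to 3′ on the gene's strand, and capitals mark the match.
TXNRD1: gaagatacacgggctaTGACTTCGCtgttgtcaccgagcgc
TXNRD1, downstream start: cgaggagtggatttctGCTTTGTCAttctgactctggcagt
PGD: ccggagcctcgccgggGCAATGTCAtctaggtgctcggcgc
SLC1A5: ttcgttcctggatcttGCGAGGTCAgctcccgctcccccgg
The TXNRD1 stretches lie at chr12:104215664-104215704 and chr12:104286914-104286954 (plus strand), the PGD stretch at chr1:10398847-10398887 (plus strand) and the SLC1A5 stretch at chr19:46787380-46787420 (minus strand). Of the 24 rises, 21 matched a promoter by symbol and 7 of those held the letters (33.3%): PGD, AKR7A2, TMEM14A, TXNRD1, TMEM219, SLC1A5 and PIR. The share was 19.3% of the 10600 tested genes with a promoter, 22.5% of 71 falls and 33.3% of 33 NRF2 targets. NQO1 had no match in its window, and sequence beyond the window was not searched. A match describes letters in a window and is no evidence of binding.

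Both chains of ferritin, the iron store, rose. FTL, the light chain and the most abundant of the 24 rises (chr19:48965301-48966878, plus strand), ran from 15630 through 19430 to 22070 CPM in DMSO. Replicates 1 to 4 held 27420, 20120, 24750 and 18900 CPM at 0.0005 µM, 32000, 24030, 26530 and 21240 CPM at 0.002 µM, and 31110, 26660, 32030 and 27550 CPM at 0.005 µM. Wells of columns 10 to 12 were higher than those of columns 20 to 22 at each dose, and all 0.005 µM wells exceeded DMSO. FTL was called at 0.002 µM (log2 0.42, adjusted p = 0.00456) and 0.005 µM (log2 0.60, adjusted p = 3.36e-07), with a value of 0.24 at 0.0005 µM. FTH1, the ferritin heavy chain with the iron-oxidising site (chr11:61959718-61967660, minus strand), spanned 857.4 to 1282 CPM in wells at 0.0005 µM, 1074 to 1386 CPM in those at 0.002 µM, and in those at 0.005 µM 1047 to 1425 CPM, against 804.8 to 1188 CPM in DMSO. Its wells overlapped DMSO at every dose, yet the pooled change passed (log2 0.27, adjusted p = 0.00115), as did that at 0.005 µM (log2 0.38, adjusted p = 0.0120).

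PGD, phosphogluconate dehydrogenase, which makes NADPH in the oxidative pentose phosphate pathway (chr1:10398592-10420144, plus strand), reached 234.9 to 296.2 CPM at 0.005 µM. Wells at 0.0005 µM held 162.3 to 219.9 CPM and those at 0.002 µM held 203.2 to 238.8 CPM, against 140.2 to 242.0 CPM in DMSO. The lower doses stayed inside the DMSO range, and 0.005 µM passed the test (log2 0.54, adjusted p = 0.00169). Of the 10 pathway and NADPH genes listed, PGD and TKT rose and none fell, beside 0.176% of all genes called higher and 0.644% lower.

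PIR, the iron-binding nuclear protein pirin (chrX:15384799-15493564, minus strand), had the largest pooled change of the 10 targets. Its DMSO wells ran from 10.69 through 28.31 to 47.70 CPM. The treated wells held 44.71, 35.65, 34.59 and 31.24 CPM at 0.0005 µM, 61.95, 47.32, 49.42 and 32.16 CPM at 0.002 µM, and 58.55, 80.06, 84.26 and 55.63 CPM at 0.005 µM. Every treated well was above the DMSO median, and the 0.005 µM wells were above all DMSO wells. The pooled rise was 1.81-fold (log2 0.86, SE 0.17, adjusted p = 0.00330), and the rise at 0.005 µM was 2.55-fold (adjusted p = 0.00266).

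Among the aldo-keto reductases, which reduce aldehydes, ketones and steroids, AKR1C1 and AKR1C3 rose. AKR1C1 (chr10:4963253-4983283, plus strand) held 87.4, 111.4 and 148.1 CPM as lowest, median and highest of DMSO. Its wells held 144.4, 107.5, 158.2 and 121.0 CPM at 0.0005 µM, 151.3, 108.9, 192.1 and 137.6 CPM at 0.002 µM, and 232.8, 184.0, 195.8 and 178.7 CPM at 0.005 µM. The 0.005 µM wells lay above every DMSO well and every 0.0005 µM well. The log2 changes were 0.21, 0.36 and 0.79 over the doses, the last called (adjusted p = 1.24e-05). AKR1C3 (chr10:5035354-5107686, plus strand) went from 421.4 to 447.4 CPM over the wells at 0.0005 µM up to 522.1 to 625.5 CPM over those at 0.005 µM, against 332.2 to 498.9 CPM in DMSO. It was called at 0.005 µM (log2 0.47, adjusted p = 0.000119). AKR1C2, their close copy and named after its values were seen, went from a log2 change of -0.26 to 0.08 and 0.45, with a slope of 0.70 (SE 0.15) that did not pass (adjusted p = 0.112). The AKR1C genes are near-identical, and FTL, FTH1, TXN and RPL7A have processed copies elsewhere in the genome, so reads may be split among copies and their values are uncertain.

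The means of the 10 NRF2 targets were ordered by dose, although the slope was called for NQO1 and TKT only. All 10 had a mean that rose at both steps, against 15.8% of all genes, and all 10 had an upward slope at an unadjusted p under 0.05, against 2.79% of all genes (2.84% had a downward one). In 8 of them, NQO1, TKT, TXNRD1, AKR1C1, AKR1C3, PIR, TXN and PGD, every well at 0.005 µM was above every well at 0.0005 µM, against 1.66% of all genes. Their median log2 change was 0.16, 0.34 and 0.61 in order of dose, and it reached 1.11 and 1.82 at 0.014 and 0.04 µM, the next doses of the series. At 0.005 µM, all 10 rises were these NRF2 targets (10 of 13668 genes higher, 0.0732%).

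No NRF2 target was called at the lowest dose. At 0.0005 µM edgeR's test called 0 of 13668 genes, with 977 (7.15%) at an unadjusted p under 0.05, while DESeq2's Wald test called 28. Leaving out single wells gave up to 8 calls there (without replicate 4 of 0.0005 µM; 6 without replicate 1 of 0.002 µM). At 0.002 µM 9 genes were called (0.0658%), of which NQO1, FTL and the low-count gene MYO5B were higher (0.0219%) and 6 lower (0.0439%). This number was 3 to 31 with single wells left out: 31 without replicate 4, 17 without replicate 2, 4 without replicate 3 and 3 without replicate 1 of 0.002 µM. At 0.005 µM 17 genes were called (0.124%), 7 of them lower (0.0512%), or 26 without replicate 2 of that dose. Of the 47 NRF2 targets, 2 (4.26%) were called higher at 0.002 µM and 10 (21.3%) at 0.005 µM. At 0.014 µM 26 targets (55.3%) were higher, as were 0.331% of all genes, and at 0.04 µM 39 targets (83.0%) and 1.2% of all genes. These comparisons share the DMSO wells.

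Other well-known targets did not pass edgeR's test at these doses. In the pooled comparison DESeq2's Wald test called 14 of the 47 targets higher and 0 lower, where edgeR called 10 higher. HMOX1, the inducible heme-degrading enzyme, spanned 263.8 to 438.8 CPM in wells at 0.0005 µM, 358.3 to 499.7 CPM in those at 0.002 µM, and in those at 0.005 µM 452.7 to 566.4 CPM, all but 1 well within the DMSO range of 285.8 to 579.2 CPM. Its pooled log2 change was 0.02 (adjusted p = 0.954), while its values at 0.014 and 0.04 µM were 1.06 and 2.73. GCLM, the modifier subunit of the ligase that starts glutathione synthesis, had a pooled log2 change of 0.40 (adjusted p = 0.108) with 11 of 12 wells above the DMSO median. SLC7A11, the cystine importer (log2 0.45, adjusted p = 0.751), and OSGIN1 (log2 0.59, adjusted p = 0.705), an oxidative-stress-induced growth inhibitor, were not called, nor was the scarce catalytic subunit GCLC (log2 -0.77, adjusted p = 0.504). BLVRB, TALDO1 and CBR1 came nearest, at log2 0.22, 0.20 and 0.20 (adjusted p = 0.0671, 0.0895 and 0.105). SRXN1 was listed at 0 counts in all 44 wells and was not tested. The 37 targets that were not called had a median pooled log2 change of 0.20 and a median slope of 0.32, and 7 of them had an upward slope at an unadjusted p under 0.05: HMOX1, ME1, AKR1B1, AKR1C2, CBR1, PRDX1 and TRIM16.

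The genes that control NRF2 showed no call. Of 13 measured, edgeR called 0 (1 at an unadjusted p under 0.05, 0 by DESeq2), and their median log2 change was -0.09. NFE2L2, encoding NRF2, stood at 0.03 (adjusted p = 0.944), KEAP1 at 0.16 (adjusted p = 0.513) and BACH1, the repressor that competes for the same elements, at -0.22 (adjusted p = 0.514).

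The other 14 rises showed no called slope over dose. Their median log2 change was 0.28, 0.32 and 0.29 at the 3 doses and 0.24 and 0.34 at 0.014 and 0.04 µM. Of the 14, 5 (35.7%) had means that rose at both steps, against 15.8% of all genes, and 0 had a slope at an unadjusted p under 0.05. BAG1, a co-chaperone of HSP70, held 90.89, 89.88, 129.4 and 88.32 CPM at 0.0005 µM, 127.7, 98.29, 131.8 and 94.51 CPM at 0.002 µM, and 161.2, 114.6, 106.7 and 85.83 CPM at 0.005 µM, against 59.48, 78.89 and 119.5 CPM as lowest, median and highest of DMSO. All 12 wells exceeded the DMSO median, and the doses overlapped. Its log2 change was 0.27, 0.45 and 0.50 in order of dose but 0.26 and 0.11 at 0.014 and 0.04 µM, and its pooled rise passed (log2 0.40, adjusted p = 0.00937). FEZ1, a kinesin adaptor, held 150.8 to 179.3 CPM in columns 10 to 12 and 99.54 to 137.5 CPM in columns 20 to 22. It was the only one of the 24 rises with all wells of columns 10 to 12 above those of columns 20 to 22 (60 of all genes, 0.439%).

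Other rises were the general transcription factor GTF2B (log2 0.41), the aflatoxin aldehyde reductase AKR7A2 (0.27), the glycolytic enzyme ENO1 (0.19), and TMEM14A, PPDPF and TMEM219 (0.35, 0.22 and 0.20). SLC1A5, a glutamine transporter, barely passed (log2 0.41, adjusted p = 0.0494), and it continued to 0.76 and 1.16 at 0.014 and 0.04 µM. CSTB, a cathepsin inhibitor, and RPL7A, a ribosomal protein, both at 0.16, are named here after their values were seen. ESM1 rested on 174 counts in 7 of 12 wells, at most 52 in a well, against 31 counts in 5 of 32 DMSO wells. MYO5B rested on 124 counts in 5 of 12 wells against 18 counts in 4 of 32. At 0.04 µM, 10 of the 10 NRF2 targets and 6 of the 14 others were called higher.

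**Figure D2:**
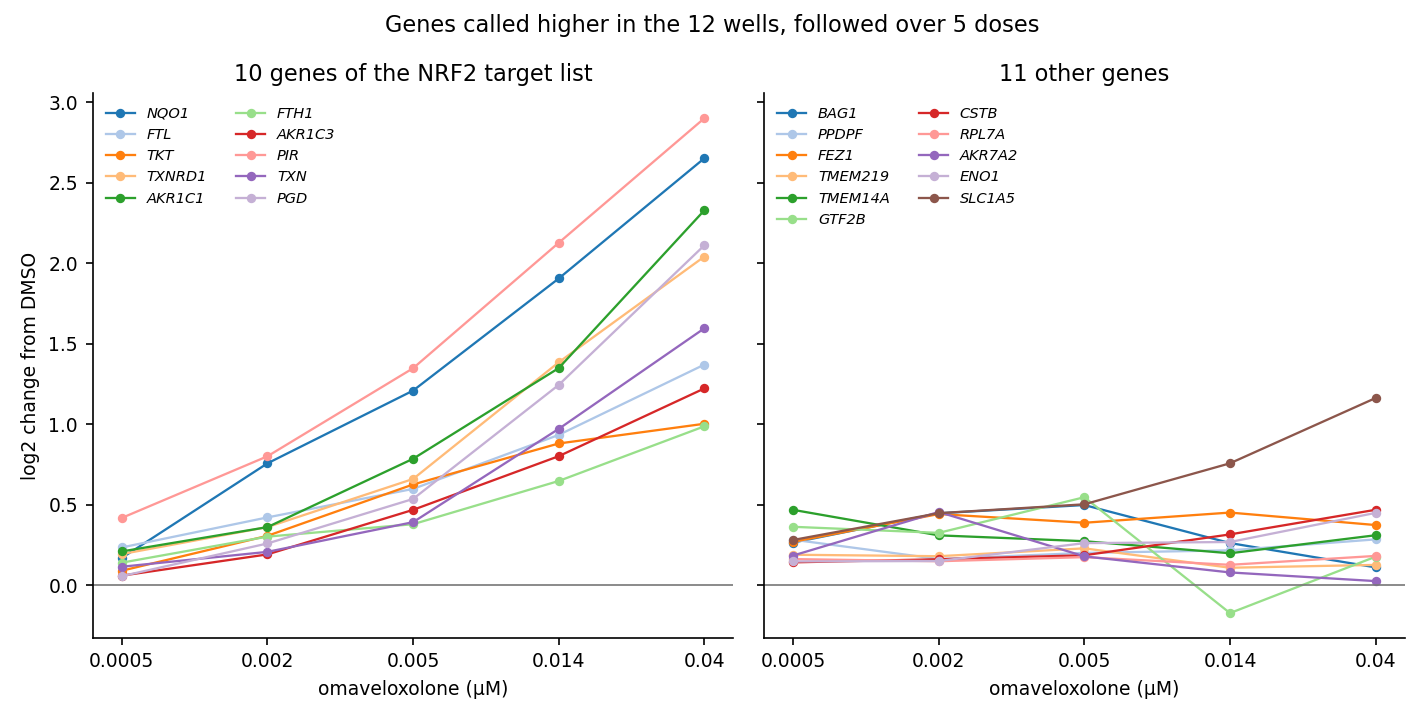
Log2 change from DMSO (y axis) over the 3 doses studied and the next 2 doses (x axis, doses in order and evenly spaced); the left panel holds the 10 NRF2 targets that rose and the right panel 11 of the other 14 rises (ESM1 and MYO5B, with few counts, are among those not drawn). The median of the 10 targets climbs from 0.16 to 1.82, while that of all 14 other rises stays between 0.24 and 0.34.

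Treated wells were then compared within each plate side, since the groups of columns share no well: columns 10 to 12 against DMSO column 2 and columns 20 to 22 against DMSO column 23. The first called 362 of 13590 genes (2.66%; 77 higher, 0.567%, and 285 lower, 2.1%) and the second 7 of 14188 (0.0493%; 6 higher, 0.0423%, and 1 lower, 0.00705%). Within columns 20 to 22, 4 of the 6 rises were NQO1, FTL, TKT and TXN, and the others were CBX3 and PMS2P5. NQO1 rose by a log2 of 0.68 in columns 10 to 12 and 0.74 in columns 20 to 22 (adjusted p = 1.61e-08 and 6.74e-07), with slopes of 1.05 and 1.04 per 10-fold dose (adjusted p = 0.000595 and 0.00546). Those slopes take their spread from the DMSO wells of the same side too. Fitted to the 6 treated wells of a side alone, the slope passed in columns 10 to 12 (adjusted p = 0.0347) and not in columns 20 to 22 (adjusted p = 0.512). TKT rose by 0.34 and 0.33 and FTL by 0.49 and 0.31. TXNRD1 and AKR1C1 rose in columns 10 to 12 (0.46 and 0.68), while their values in columns 20 to 22, 0.34 and 0.19, did not pass (adjusted p = 0.193 and 0.569). The median over the 10 NRF2 targets was 0.40 and 0.32. Over the other 14 rises, of which 13 were measured in each side, it was 0.36 and 0.16, with 11 called in columns 10 to 12 and 0 in columns 20 to 22 (10 higher there at an unadjusted p under 0.05).

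For the 88 falls the gap between the sides was wide. Their median log2 change was -1.19 in columns 10 to 12 and -0.35 in columns 20 to 22, and 86 of the 87 measured in both had the same sign. By the test of the difference itself (128 of 15006 genes called, 0.853%), 38 of the 88 falls and 0 of the 24 rises differed between the column groups; 5 of the rises did at an unadjusted p under 0.05, against 9.18% of all genes. In columns 10 to 12 alone 71 of the falls were called, and in columns 20 to 22 alone 0 were. There 51 were lower at an unadjusted p under 0.05, beside 952 of the 13563 pooled-test genes measured there (9.75% of all genes in either direction). Both the rises and the falls were chosen by the pooled test on these same wells. Their calls and shared signs within a side are therefore a description. For 21 of the 88, every well of columns 10 to 12 was below every well of columns 20 to 22, against 0.556% of all genes. Over dose, the median of the falls was -0.65, -0.75 and -0.76, and 27 of 88 (30.7%) had means that fell at both steps, against 16.5% of all genes. Of the 88, 59 had a slope below 0, as did 6991 of all 13668 genes, and 0 slopes were called. At an unadjusted p under 0.05, 9 (10.2%) had a downward slope, against 2.84% of all genes. An upward slope at that limit was seen in 3 (3.41%), against 2.79% of all genes. In 1 of the 88, FGF14, all 0.005 µM wells lay below all 0.0005 µM wells, against 1.29% of all genes. The mean total was 5694500 counts in columns 10 to 12 and 6633200 in columns 20 to 22, beside 6107600 in DMSO column 2 and 7206400 in column 23, and the part of depth in these differences was not tested. DMSO wells were only in columns 2 and 23, so a plate position effect and treatment cannot be told apart. Dose itself followed column order, from 12 to 10 and from 22 to 20, so a change over dose and one over columns cannot be told apart either.

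**Figure D3:**
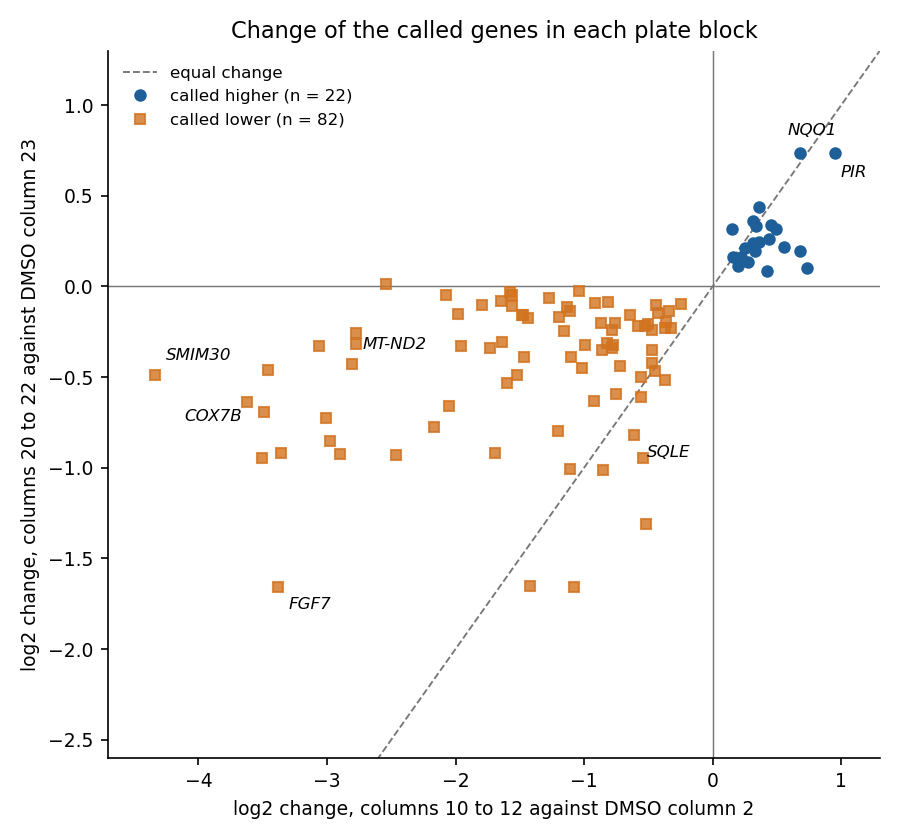
Log2 change in columns 10 to 12 against DMSO column 2 (x axis) and in columns 20 to 22 against DMSO column 23 (y axis) for called genes with at least 10 CPM; each point is a gene, 22 that rose and 82 that fell, and the dashed line marks equal change. NQO1 lies near the line (0.68 and 0.74), while SMIM30 (-4.34 and -0.49) and COX7B (-3.49 and -0.69) lie far from it.

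A score for each well, the median over the called genes of its log2(CPM + 1) minus the DMSO mean, shows the same in every well. It is a description, since the genes were chosen on these wells. For the rises, the wells of columns 10 to 12 scored 0.27 to 0.52, those of columns 20 to 22 scored 0.04 to 0.38, and DMSO scored -0.17 to 0.11. For the falls, columns 10 to 12 scored -1.06 to -0.92, columns 20 to 22 scored -0.52 to -0.22, DMSO column 2 scored 0.05 to 0.18 and DMSO column 23 scored -0.23 to 0.11. In both groups of columns the scores of the rises climbed with dose, while the scores of the falls were separated by column group, with no overlap between the groups.

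**Figure D4:**
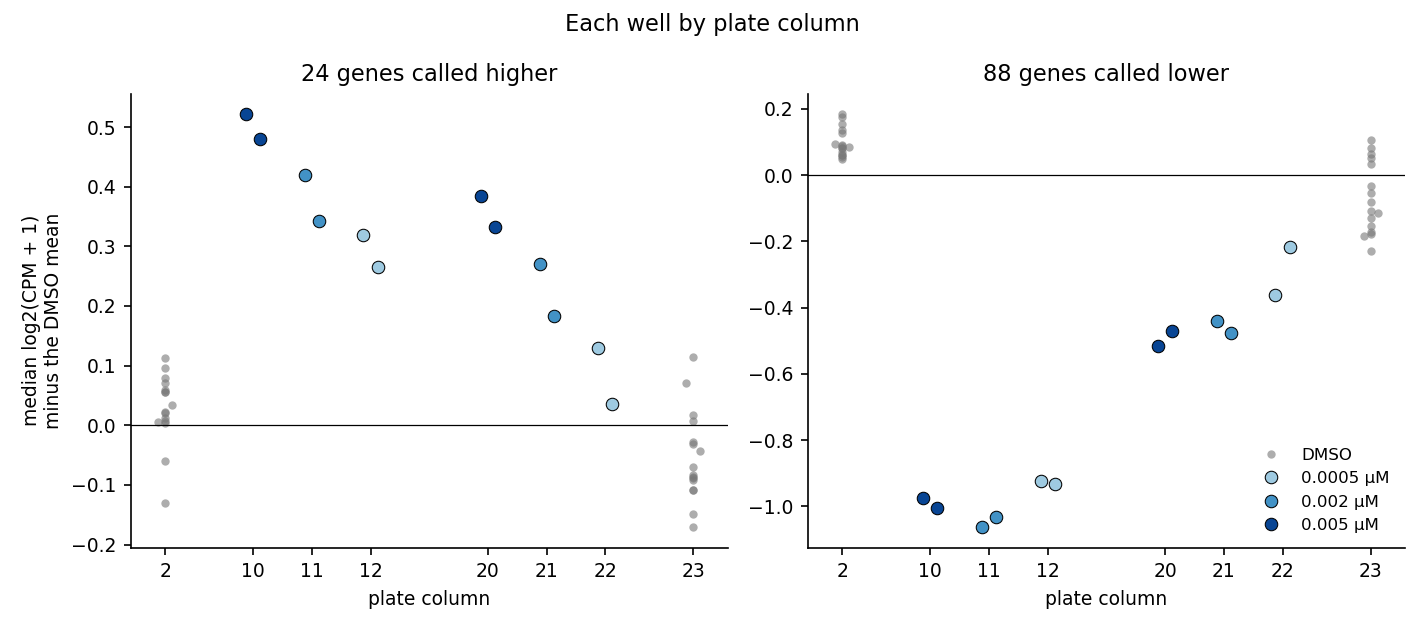
Well score of the 24 rises and the 88 falls (y axis, median log2 difference from the DMSO mean) by plate column (x axis), 1 point for each well. The falls sit at -1.06 to -0.92 in columns 10 to 12 and at -0.52 to -0.22 in columns 20 to 22, and DMSO column 23 reaches down to -0.23.

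FGF7, keratinocyte growth factor, which fibroblasts secrete to the epidermis, fell the most of the well-measured genes (chr15:49423096-49488775, plus strand). DMSO ran from 13.49 through 64.73 to 117.5 CPM. Replicates 1 to 4 held 21.34, 9.286, 13.39 and 16.47 CPM at 0.0005 µM, 1.28, 38.83, 13.79 and 37.04 CPM at 0.002 µM, and 3.944, 6.659, 1.328 and 14.96 CPM at 0.005 µM. All 12 wells lay below the DMSO median and 6 lay below every DMSO well. The pooled log2 change was -2.27 (SE 0.29, adjusted p = 1.63e-06), with -3.38 in columns 10 to 12 and -1.66 in columns 20 to 22. It stood at -1.19 and -2.79 at 0.014 and 0.04 µM.

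Several respiratory chain genes fell. COX7B, a small subunit of cytochrome c oxidase, held 7.433 to 17.86 CPM in columns 10 to 12 and 30.72 to 89.49 CPM in columns 20 to 22. The DMSO means were 158 CPM in column 2 and 86.6 CPM in column 23, so the controls differed as well. Its pooled log2 change was -1.83 (adjusted p = 1.16e-05). Fitted separately against the DMSO column of its side, it was -3.49 in columns 10 to 12 and -0.69 in columns 20 to 22. MT-ND2, a complex I subunit encoded by the mitochondrial genome, held 10.71 to 29.73 CPM in columns 10 to 12 and 82.75 to 173.9 CPM in columns 20 to 22, against DMSO means of 139 and 163 CPM. Its pooled change was -1.08 (adjusted p = 0.0161), and the 2 changes, -2.81 and -0.43, differed (adjusted p = 3.18e-13). MT-ND4L and MT-ND4, of the same complex, and UQCRB, of complex III, fell by 1.66, 0.55 and 0.77 on the log2 scale. Of the 13 mitochondrially encoded mRNAs, 3 were called lower and none higher, with a median of -0.38. Of 39 nuclear respiratory chain genes, 2 (COX7B and UQCRB) were called lower and none higher, while 0.644% of all genes were called lower. Of the 39, 29 were above 0 with a median of 0.05, and 6 were higher and 3 lower at an unadjusted p under 0.05.

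Other large falls had varied roles. ESD, a glutathione-linked thioesterase, held 14.5 to 39.4 CPM in columns 10 to 12 and 26.68 to 60.97 CPM in columns 20 to 22, against DMSO means of 183 and 71.6 CPM (pooled log2 -1.99). The small membrane protein gene SMIM30 fell by 1.96, the ubiquitin ligase subunit FBXO30 by 1.67, EMC2 of the endoplasmic reticulum membrane complex by 1.65, the ribosomal protein gene RPL39 by 1.58, the nuclear pore protein RANBP2 by 1.58 and the translation initiation subunit EIF3E by 1.53. PSMA4, a proteasome subunit, fell by 0.94, and the scarce GFRA1, a neurotrophic factor receptor, by 1.81. GFRA1 held 0 to 1.033 CPM in columns 10 to 12 and 0.7584 to 12.16 CPM in columns 20 to 22, against 0.6263 to 14.3 CPM in DMSO. Its call was lost in 5 of 12 fits that left out single treated wells. LUM, the collagen-binding proteoglycan lumican and a fibroblast marker, held 2.677 to 47.87 CPM in columns 10 to 12 and 67.2 to 89.17 CPM in columns 20 to 22, against 32.43 to 327.1 CPM in DMSO (pooled log2 -1.51). It was the only fibroblast marker of 12 called. MSTN, a growth inhibitor of muscle, had 2 counts in 1 of 12 wells against 367 counts in 17 of 32 DMSO wells. ZNF410 had 0 counts in the 12 wells against 219 in 15 of 32 DMSO wells, at most 58 in a well. That is at least 27.2-fold lower with a floor of 3 counts over the 12 wells, for counting error only, which leaves out well-to-well spread. With single treated wells left out, ZNF410 lost its call in 8 of 12 fits and MSTN in 3.

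The gap between column groups was not seen in every fall. SQLE, squalene epoxidase of cholesterol synthesis, held 30.72 to 42.83 CPM and 27.76 to 54.64 CPM in the 2 groups against a DMSO range of 24.06 to 120.4 CPM with a median of 64.47 CPM. Every treated well was below that median, and the changes were -0.61 and -0.82 (pooled log2 -0.72, adjusted p = 0.00365), with no call for their difference (adjusted p = 0.965). SQLE was the only one of 25 cholesterol genes called. CLDN11, a tight junction claudin named after its values were seen, was the gene called lower at both 0.002 and 0.005 µM (log2 -0.35 and -0.33, adjusted p = 0.0131 and 0.0179). It had stood at -0.12 at 0.0005 µM and went to -0.62 and -0.75 at 0.014 and 0.04 µM, and its pooled change was -0.36 in columns 10 to 12 and -0.20 in columns 20 to 22. XPOT, the tRNA exporter and an ATF4 target, fell by 0.60, more in columns 10 to 12, and was the only call among 25 genes of the integrated stress response.

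Of 31 pathway lists, 12 held any called gene. The heat shock list had 0 of 23 genes called by edgeR (2 at an unadjusted p under 0.05, 1 by DESeq2) with a median log2 change of 0.03. Glutathione metabolism had 0 of 29 (6 at an unadjusted p under 0.05, 1 by DESeq2) with a median of 0.08. Cytosolic ribosomal proteins had 0 of 50, but 46 were above 0 with a median of 0.11, and DESeq2 called 4. At an unadjusted p under 0.05, 27 were higher and 2 lower, beside 508 higher and 1121 lower of all 13668 genes. In columns 10 to 12, 11 were called higher and 2 lower, and in columns 20 to 22 0 were called. These genes also differed between the controls, with 33 of 50 called lower in DMSO column 23 than in column 2. Collagens, the main product of a fibroblast, had 0 of 15 (0 at an unadjusted p under 0.05, 0 by DESeq2), with opposite signs in the column groups. Their median was 0.44 in columns 10 to 12, where 4 were called higher, and -0.25 in columns 20 to 22, where all 15 were below 0. DMSO column 23 exceeded column 2 by a median of 0.79 for the same genes.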

How the data were processed

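The authors deposited whole-number counts per gene and well for 23170 genes, unnormalized and made with kallisto and bustools on GRCh38 per the submitters' processing notes. Versions and any collapsing of molecular identifiers are not given in the sources used here, so counts may be reads, and intervals cover counting error only. Leaving out 38 genes kept 23132. Positions come from GENCODE release 29.

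Counts of 44 wells were fitted with edgeR 4.0.16 in R 4.3.3 (TMM, filterByExpr with a minimum count of 10, robust quasi-likelihood test, Benjamini-Hochberg adjustment within each comparison). Contrasts were the mean of the 3 doses against DMSO, each dose, each step and the slope on log10 dose. Values at 0.014 and 0.04 µM came from a fit that added those wells. DESeq2 1.42.0 gave an alternative. The code was tested on simulated data. Levels of single genes are CPM after TMM scaling, and summed marker levels are CPM of the raw total. Depth and RNA makeup were compared by permutation tests (100000 resamples, or all 58905 splits).

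Named were 11 fixed genes, of called genes with a mean of at least 10 CPM the 20 largest rises and 10 largest falls, up to 5 with fewer counts, up to 3 called members of each list, genes called in the slope, and the 3 nearest uncalled NRF2 targets. A gene that the rule picked is not reported here. The wells, lists and genes were chosen with earlier results of these data known. Alternatives were other scaling, filters and tests, all 72 wells, DMSO of rows K and L, plate side, a replicate block, and leaving out wells or doses.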

Additional observations from a re-analysis of the deposited data

Results flagged for a closer look

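In 160 groups of 4 wells searched for a well far from the other 3 (Dixon's 95% limit, which chance passes in about 5% of groups), 7 stood out. BAG1 was at 129.4 CPM in replicate 3 of 0.0005 µM, with the others at 88.32 to 90.89 CPM. TMEM219 was at 472.0 CPM in replicate 1 of 0.002 µM, with the others at 370.2 to 379.3 CPM. KEAP1 was at 59.48 CPM in replicate 2 of 0.005 µM, below the others at 70.98 to 72.05 CPM. UQCRB was at 53.82 CPM in replicate 4 of 0.0005 µM, with the others at 28.52 to 30.31 CPM. Scarce transcripts gave the remaining 3: ESM1 at 10.71 CPM in replicate 3 of 0.002 µM (others up to 0.768 CPM), MYO5B at 2.422 CPM in replicate 2 of 0.005 µM (others at 0) and MSTN at 0.2796 CPM in replicate 4 of 0.005 µM (others at 0).

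The change against DMSO differed between columns 20 to 22 and columns 10 to 12 for 13 named falls, by edgeR's interaction test at an adjusted p under 0.05. The log2 change in columns 20 to 22 minus that in columns 10 to 12 was 3.83 for SMIM30, 3.18 for GFRA1, 2.78 for COX7B, 2.72 for RPL39, 2.55 for MT-ND4L, 2.42 for EMC2 and 2.37 for MT-ND2. It was 2.27 for RANBP2, 2.11 for ESD, 1.497 for UQCRB, 1.37 for EIF3E, 1.32 for PSMA4 and 0.96 for XPOT. In all 13 the fall was larger in columns 10 to 12.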

How the results depend on the processing

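Of the 112 pooled calls, DESeq2's Wald test gave 223 (58 higher, 165 lower), with 22 of the 24 rises and 74 of the 88 falls among them, a fit of all 72 wells gave 28, using just the row K and L controls gave 2 (NQO1 among them), and the replicate block gave 18. The replicate block fit kept only DMSO replicates 1 to 4 as controls, so blocking and fewer controls cannot be told apart there. Leaving out the 0.002 µM wells gave 66, leaving out the 0.005 µM wells 38, and single wells 74 to 169. Taking the 0.0005 µM wells as reference left 1 call, NQO1, columns 10 to 12 alone 362 and columns 20 to 22 alone 7. With the plate side of every well as a covariate there were 167 (52 higher, 115 lower). The 2 slope calls became 5 with the Wald test, 0 with all 72 wells, 1 with the 12 wells alone, 1 in columns 10 to 12 alone, 0 in columns 20 to 22 alone and 1 to 3 without single wells. The 0 calls at 0.0005 µM became 28 (Wald), 200 (no filter), 2 (at least 10 CPM), 1 (all 72 wells), 15 (plate side) and 0 to 8 (single wells). The 9 at 0.002 µM became 48 (Wald), 186 (no filter), 1 (rows K and L), 25 (plate side) and 3 to 31 (single wells). The 17 at 0.005 µM became 84 (Wald), 242 (no filter), 11 (all 72 wells), 3 (rows K and L), 6 (replicate block) and 15 to 26 (single wells). Same-numbered wells of different doses correlated at 0.0303 to 0.0888 (median 0.0629), and the 36 pairs with different numbers at -0.115 to 0.102 (median -0.0367). In 16 of 24 comparisons of a well with another dose, its best match had its own number. Numbers followed plate position, and the main fit did not take them as pairs. The replicate block, with its fewer controls, also ended the slope call of TKT (adjusted p = 0.0692). With the 0.0005 µM wells as reference, 11 named genes that were called changed sign and ZNF410 came to 0: TMEM14A (-0.18), PPDPF (-0.10), ESD (0.22), FBXO30 (0.22), MT-ND4L (0.96), EIF3E (0.33), MSTN (1.12), ZNF410 (0.00, with no count in any of the 12 wells), XPOT (0.22), MT-ND4 (0.010), MT-ND2 (0.19) and UQCRB (0.018). Across the named genes and the alternatives other than leaving out single wells, 1112 values kept their side of the threshold, 232 lost the call and 10 gained one. Of 743 such values of genes that were not called, 28 changed sign, and of 732 with single wells left out, 42 did. The cause of these changes was not tested.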
